A study of Mus musculus with 6 samples.

Results

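Immunity-related GTPases (IRGs) are small interferon-induced proteins with which mouse cells attack the vacuoles of intracellular parasites and bacteria. The family was taken as the genes whose symbol in the count table is Irgm1, Irgm2, Igtp, Iigp1, Ifi47, Tgtp1, Tgtp2, Gm12250 or Gm5431. These 9 symbols correspond to 10 gene models among the 78298 genes of the table, because Gm12250 is listed as 2 models, and all 10 passed the low-count filter that left 15522 genes for testing. They were followed in 6 RNA sequencing samples of RENCA, an established mouse renal adenocarcinoma cell line. The oe-AQP1 group (n = 3) had received a lentivirus with the coding sequence of mouse Aqp1, a water channel, driven by a ubiquitin C promoter, and the oe-NC group (n = 3) the empty vector. Both groups carried the vector backbone and had been through 14 days of puromycin at 2 μg/mL. The sample records give a transduction time of 48 h for both groups. Both are therefore selected, transduced populations, and cells without virus were not among the samples. Labels place all samples in 1 batch. The comparison asks how the family's transcripts differ between cells with and without added Aqp1.

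IRG proteins fall into 2 classes by the phosphate-binding loop (P-loop) of their GTPase domain. The regulators, called GMS, carry methionine where most GTPases carry lysine, sit on the membranes of the cell's own organelles and keep the effectors inactive there. The effectors, called GKS, carry the usual lysine and load onto pathogen vacuoles, which then rupture. Transcription of the family is classically switched on by interferons, through transcription factor complexes that bind GAS and ISRE elements.

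The P-loop coding sequence shows this division and is printed for that reason for every member but Iigp1, whose place among the GKS effectors is taken from background knowledge. The 24 bases below run 5′ to 3′ on the coding strand and come from the GENCODE M39 transcripts on GRCm39. Codon 7, in capitals, is ATG for methionine or AAG for lysine.
Irgm1, Igtp and Irgm2 (chr11:48757588-48757611, minus strand, chr11:58097101-58097124, plus strand, and chr11:58110521-58110544, plus strand): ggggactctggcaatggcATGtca
Tgtp1 and Tgtp2 (chr11:48878494-48878517 and chr11:48950361-48950384, both minus strand): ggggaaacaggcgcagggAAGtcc
Ifi47 (chr11:48986475-48986498, plus strand): gggcagtctgggactggcAAGtcc
Gm5431 (chr11:48786122-48786145, minus strand): ggggagactggggctggaAAGtcc
Gm12250, both models (chr11:58078807-58078830, plus strand): ggggagacaggggcagggAAGtcc
The 3 GMS genes had the same 24 bases. Their whole coding sequences were 62.6% to 66.9% identical to each other. Both Gm12250 models hold an open frame of 417 codons through this loop, although GENCODE classes one as a transcribed processed pseudogene and the other as a lncRNA. RefSeq lists the gene as protein-coding under the synonym Irgb10.

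Of the 10 gene models, 5 lie in a 235 kb stretch of chromosome 11 at chr11:48752795-48987813 on GRCm39 (Irgm1, Gm5431, Tgtp1, Tgtp2 and Ifi47). Another 4 lie at chr11:58074623-58113615 (both Gm12250 models, Igtp and Irgm2), and Iigp1 is on chromosome 18 at chr18:60506680-60525706. Some members cannot be fully separated by reads. Tgtp1 and Tgtp2 are 99.7% identical in coding sequence, and 78.2% of the 100-base stretches of Tgtp1 occur in Tgtp2. The exon of the Gm12250 pseudogene model lies wholly inside the lncRNA model, over 1274 bases. Igtp and Irgm2 share 162 bases of exon. The counts of Iigp1 were whole numbers in all 6 samples, whereas those of the other members included fractions in 4 to 6 samples. Values of Tgtp1, Tgtp2 and Gm12250 are therefore also given as sums.

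Libraries held 18385714.02 to 21920898.67 expected counts. Aqp1 reads numbered 7713, 8545 and 7838 in the oe-AQP1 samples and 41, 25 and 45 in the oe-NC samples, so the labels match the transgene (log2FC = 7.70, FDR = 1.34e-10). The log2FC values compare oe-AQP1 with oe-NC on the log2 scale in a limma-voom fit, and FDR is the Benjamini-Hochberg adjusted p over all genes tested. A gene is called changed where the FDR is below 0.05 and the expression differs by more than 1 on that scale in either direction. Sample 1 of oe-NC stood apart from the other oe-NC samples, with a chi-square per gene of 9.75 and 11.3 against them, where other pairs within a group gave 1.74 to 2.06. Of the epithelial markers, Pax8, Krt8, Krt18 and Cdh16 had the most counts. Cdh1, Krt19 and Car9 had at most 78 counts in any sample, and Epcam was at 0 in all samples. The summed level of the 12 epithelial markers was 853 to 885 CPM, the count scaled to library size, in oe-AQP1 and 1043 to 1155 CPM in oe-NC. By FDR alone 6 of them were lower in oe-AQP1, where 16.6% of all genes tested were. The part of these markers in the IRG values was not tested. For 13 macrophage and dendritic markers the sum was 101 to 109 and 106 to 107 CPM, with Adgre1, C1qa and C1qb at 0 in every sample. Ptprc, Itgam, Fcgr1, Mrc1 and Itgax had at most 5 counts in any sample. Cd68, Cd74, Cd14 and Lyz2 were expressed, and the sum hides opposite differences. Csf1r was called lower in oe-AQP1 (log2FC = -1.51, FDR = 1.31e-05), Lyz2 had a log2FC of -0.52 and Cd74 one of 0.28, and their part in the IRG values was not tested. The 9 T and NK cell markers together stayed at or under 0.235 CPM. Endothelial and fibroblast markers, 9 in number, summed to 58.3 to 60.3 CPM in oe-AQP1 and 53.1 to 67.0 CPM in oe-NC. This sum too hides opposite differences, with Pdgfrb at a log2FC of 0.34 (FDR = 0.00284) and Col1a1 at -0.73 (FDR = 0.00238). The part of these genes in the IRG values was not tested.

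All 10 IRG models were called higher in oe-AQP1 cells, where 4.39% of all genes tested were called higher, 0.844% lower and 5.23% in either direction. Their log2FC ran from 1.75 to 6.13, which is 3.36-fold to 70.2-fold, with a median of 3.40 against 0.00234 over all genes. In each of the 10 the lowest oe-AQP1 sample exceeded the highest oe-NC sample, as it did for 23.5% of all genes. An exact two-sided permutation test of single members gave p = 0.1, the smallest value that 3 samples against 3 allow. Without oe-NC sample 1 all 10 were again called, and the median was 3.35. Both Gm12250 models and Gm5431 passed the low-count filter through their oe-AQP1 samples, so their calls add little, while the other 7 members had at least 346 counts in every sample. In bulk RNA, more cells expressing a gene and more RNA per cell cannot be told apart.

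**Figure D1:**
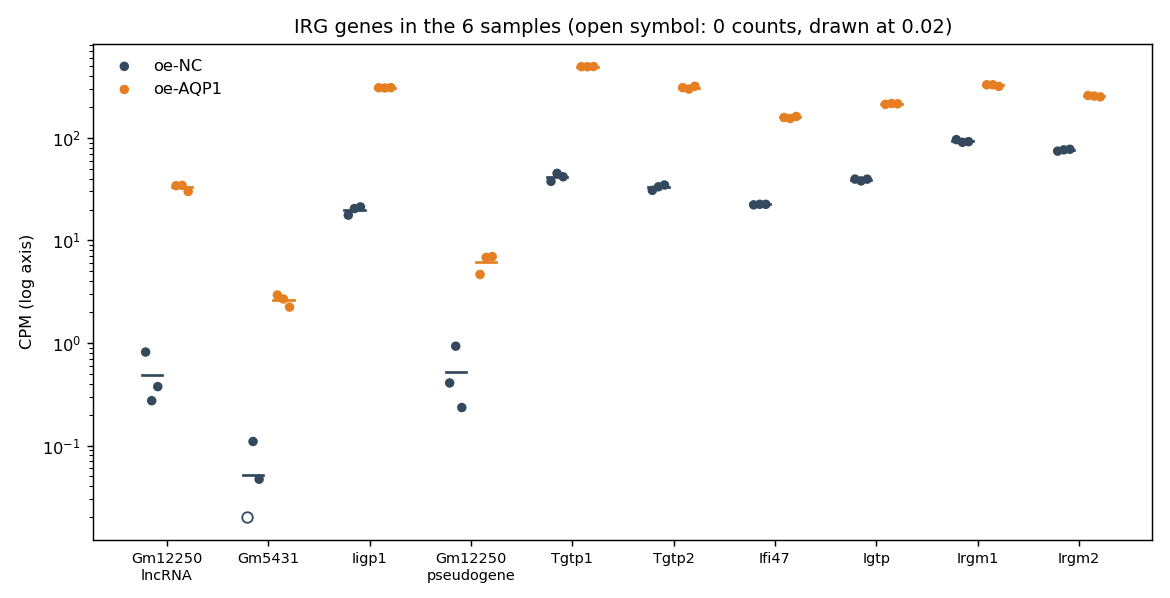
CPM (log axis) of the 10 IRG gene models in each of the 6 samples, with 3 points and a bar for the mean of oe-NC (dark) and of oe-AQP1 (orange). The groups do not overlap for any model, and the open symbol for Gm5431 is an oe-NC sample with 0 counts.

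The regulators rose least. Irgm1, which guards lysosomal, Golgi and mitochondrial membranes, stood at 329.24, 329.07 and 317.06 CPM in oe-AQP1 samples 1 to 3 and at 96.0, 90.4 and 91.8 CPM in oe-NC samples 1 to 3. Its oe-AQP1 samples lay close together and well above all oe-NC samples (log2FC = 1.81, SE = 0.0399, FDR = 2.51e-10). Irgm2, found at the Golgi, was at 258.74, 255.35 and 250.91 CPM against 74.2, 76.3 and 77.3 CPM. The groups were again apart, and the difference was of the same order (log2FC = 1.75, SE = 0.0385, FDR = 2.51e-10). Igtp, also called Irgm3 and found at the endoplasmic reticulum and lipid droplets, had 212.21, 216.2 and 214.68 CPM against 39.586, 38.026 and 39.547 CPM. It rose more than the other regulators (log2FC = 2.46, SE = 0.0422, FDR = 4.41e-11), since its 95% confidence interval of 2.36 to 2.55 lay above the 1.72 to 1.90 of Irgm1 and the 1.66 to 1.83 of Irgm2. Exons of Irgm1 overlap those of the antisense lncRNA Gm74350 over 497 bases. Gm74350 had 84 to 96 counts in oe-AQP1 samples, where Irgm1 had at least 6510.

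Among the effectors, Ifi47 (Irgd) rose least. It measured 157.79, 154.3 and 161.52 CPM in oe-AQP1 and 22.2, 22.5 and 22.5 CPM in oe-NC, with almost no spread within groups (log2FC = 2.82, SE = 0.0497, FDR = 5.08e-11). It lies within the span of the olfactory receptor gene Or2v1 on the same strand, and the genes share 111 exon bases.

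Tgtp1 and Tgtp2, the neighbouring copies that encode Irgb6, an effector that arrives early on Toxoplasma vacuoles, were both abundant. Tgtp1 was at 494.47, 493.47 and 495.8 CPM against 37.6, 45.0 and 41.7 CPM (log2FC = 3.58, SE = 0.0553, FDR = 2.26e-11). Tgtp2 was at 308.76, 298.97 and 318.47 CPM against 30.8, 33.3 and 34.7 CPM (log2FC = 3.23, SE = 0.0543, FDR = 3.66e-11). Both copies were high in every oe-AQP1 sample. As a single feature they had 803 ± 10.9 CPM in oe-AQP1 and 74.4 ± 5.25 CPM in oe-NC (SD, n = 3), a log2FC of 3.44 (SE = 0.0482, FDR = 1.18e-11). The ratio of Tgtp1 to Tgtp2 CPM was 1.60 ± 0.0469 in oe-AQP1 and 1.26 ± 0.0804 in oe-NC, and how far the division of shared reads enters this ratio was not tested.

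Iigp1 (Irga6), the effector whose structure and GTP-driven assembly are best known, had 307.7, 306.15 and 308.65 CPM against 17.6, 20.4 and 21.2 CPM. The oe-AQP1 samples were nearly alike, and oe-NC sample 1 was the lowest of all (log2FC = 3.96, SE = 0.0631, FDR = 2.73e-11). Without that sample the log2FC was 3.88.

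The largest ratios belonged to members that were barely detected in oe-NC. The lncRNA model of Gm12250 (Irgb10, known for attacking bacterial membranes) had 675, 756 and 616 counts in oe-AQP1 and 16, 5 and 8 in oe-NC (log2FC = 6.13, SE = 0.346, FDR = 4.62e-07), and it ranked 4 among all genes tested by log2FC. The pseudogene model had 92, 150 and 143 counts against 8, 17 and 5 (log2FC = 3.72, SE = 0.436, FDR = 1.25e-04). In oe-NC the order of the 2 models changed between samples, with the lncRNA model higher in samples 1 and 3 and lower in sample 2. Summed, Gm12250 had 767, 906 and 759 counts against 24, 22 and 13, or 38.97 ± 2.15 and 1.01 ± 0.348 CPM (log2FC = 5.32, SE = 0.245, FDR = 8.92e-08). The sum leaves the direction as it was and lies between the values of the single models.

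Gm5431, an IRG gene with an open frame of 844 codons, had 58, 59 and 46 counts in oe-AQP1 and 0, 2 and 1 in oe-NC. Over each group this is 163 against 3 counts, a ratio of 51.6 after library scaling with a 95% counting interval of 17.4 to 253. The fitted log2FC of 5.39 (FDR = 2.55e-05) depends on the offset of 0.5 counts that voom adds and was 4.76 without oe-NC sample 1, the one with 0 counts. The gene was the least abundant member in both groups.

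The 95% confidence intervals of the 7 GKS models, the lowest of which begins at 2.70 for Ifi47, all lay above those of the 3 GMS genes, the highest of which ends at 2.55 for Igtp. The median log2FC was 1.81 for GMS and 3.40 for the 4 GKS genes with at least 10 counts in every sample, Ifi47, Tgtp2, Tgtp1 and Iigp1. Over all 7 GKS models it was 3.72, the value of the Gm12250 pseudogene model, which passed the filter through oe-AQP1 alone. Under the alternative tests, scalings and filters, and with single samples left out, the highest GMS value was 2.47 and the lowest GKS value 2.80.

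**Figure D2:**
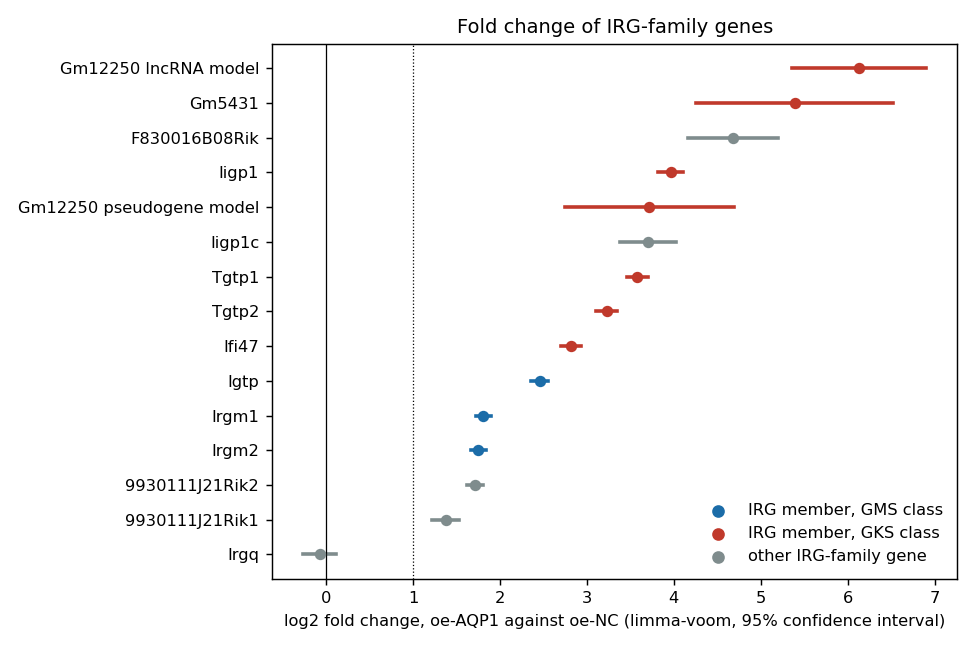
Log2 fold change (oe-AQP1 over oe-NC) with its 95% confidence interval for the 10 IRG models (blue GMS, red GKS) and 5 other IRG-family genes (grey), with the dotted line at 1. The GMS genes lie between 1.75 and 2.46 and the GKS models between 2.82 and 6.13, while Irgq lies at -0.08.

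Levels of different genes were compared in TPM, a unit per transcript length and library size that was computed here from the counts and the union of annotated exons. In oe-NC cells the order was Irgm2 (78.7 ± 0.484 TPM, SD, n = 3), Irgm1 (56.6 ± 3.25 TPM), Tgtp1 (49.2 ± 3.46 TPM), Tgtp2 (43.4 ± 1.51 TPM), Igtp (33.2 ± 1.36 TPM), Ifi47 (30.5 ± 0.606 TPM) and Iigp1 (12.01 ± 0.839 TPM). The 2 Gm12250 models followed with overlapping ranges, at 1.59 ± 1.09 and 0.960 ± 0.593 TPM, and Gm5431 was last. All other neighbours in this order had ranges that did not overlap. In oe-AQP1 cells the regulators gave way to Tgtp1 (609.574 ± 3.48 TPM) and Tgtp2 (423.133 ± 13.9 TPM). Irgm2 (274.386 ± 3.10 TPM), Ifi47 (223.445 ± 5.45 TPM), Irgm1 (205.961 ± 3.86 TPM), Iigp1 (194.528 ± 1.24 TPM) and Igtp (189.418 ± 2.53 TPM) came next, all without overlap. The lowest places were held by the Gm12250 models and Gm5431 (2.73 ± 0.356 TPM). The order depended on the length used: with the canonical transcript, Irgm1 led in oe-NC at 102 TPM and was next to Tgtp1 in oe-AQP1 at 364 TPM against 401 TPM.

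The family's summed level was 2209 ± 13.6 TPM in oe-AQP1 and 306 ± 1.93 TPM in oe-NC, 7.21-fold higher. GMS genes together went from 169 to 670 TPM (3.97-fold) and GKS models from 138 to 1539 TPM (11.2-fold). GMS transcripts made up 56.7%, 53.6% and 54.7% of the family in oe-NC samples 1 to 3, and 30.5%, 30.7% and 29.8% in oe-AQP1 samples 1 to 3. The ratio of GKS to GMS was thus 0.818 ± 0.0508 in oe-NC and 2.30 ± 0.0508 in oe-AQP1. With canonical transcript lengths these ratios were 0.557 and 1.54, so effectors were the smaller class in oe-NC and the larger in oe-AQP1 by both lengths. Within the family, the share of Tgtp1 went from 16.1% to 27.6% and that of Iigp1 from 3.92% to 8.81%, and the share of Irgm2 from 25.7% to 12.4%. Ifi47 held 9.97% and 10.1%.

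**Figure D3:**
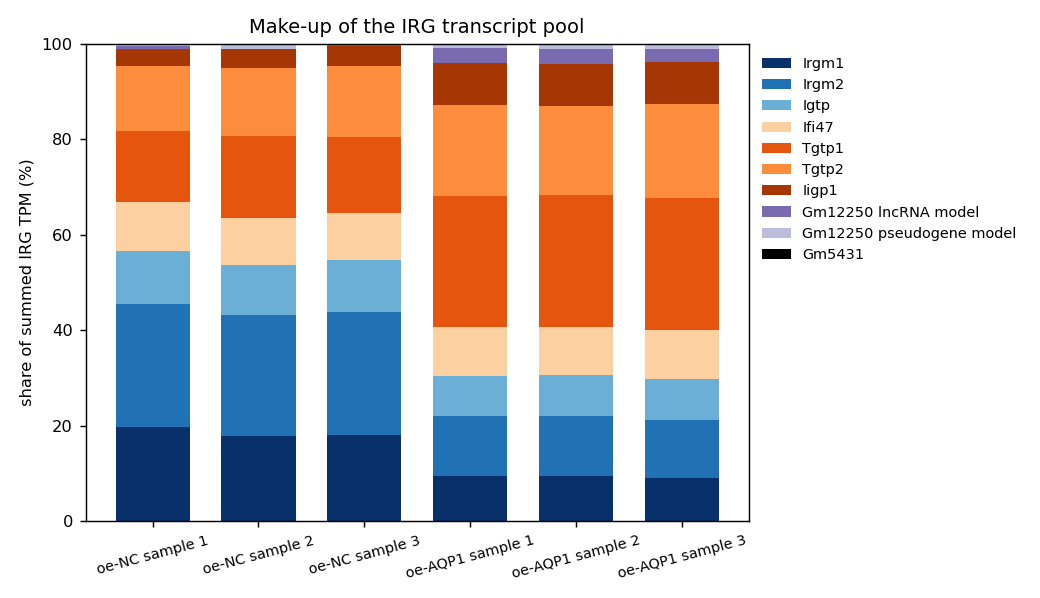
Share of each IRG model in the summed IRG TPM (%), stacked from 0 to 100 for each of the 6 samples. Blue GMS genes fill 53.6% to 56.7% of each oe-NC bar and 29.8% to 30.7% of each oe-AQP1 bar.

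The promoters were examined because interferon-responsive genes commonly carry ISRE and GAS elements near their start. RefSeq promoters on GRCm38.p6, from 250 bases before to 50 after the start, were found for 8 of the 9 symbols. The ISRE core was searched as GAAA, 2 bases of any kind and GAAA again, on either strand, and occurred in 6 of 8 (75.0%), against 3.44% of 32851 mouse promoters. The GAS motif TTCNNNGAA, which reads the same on both strands, occurred in 5 of 8 (62.5%), against 8.30%. The 100 bases before the start are given for the 6 promoters with a match, read 5′ to 3′ in the direction of transcription, with ISRE and GAS matches in capitals.
Tgtp1 (chr11:48992247-48992346, minus strand): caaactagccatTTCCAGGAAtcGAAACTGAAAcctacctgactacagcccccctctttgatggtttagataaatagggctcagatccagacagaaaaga
Tgtp2 (chr11:49064213-49064312, minus strand): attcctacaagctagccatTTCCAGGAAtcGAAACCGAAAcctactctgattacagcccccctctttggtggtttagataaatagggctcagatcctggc
Igtp (chr11:58199456-58199555, plus strand): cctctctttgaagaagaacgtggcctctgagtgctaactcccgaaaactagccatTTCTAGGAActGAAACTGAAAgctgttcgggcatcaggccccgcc
Irgm2 (chr11:58214877-58214976, plus strand): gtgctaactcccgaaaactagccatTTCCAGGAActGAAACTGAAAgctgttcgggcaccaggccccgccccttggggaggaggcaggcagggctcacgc
Gm12250 (chr11:58183743-58183842, plus strand): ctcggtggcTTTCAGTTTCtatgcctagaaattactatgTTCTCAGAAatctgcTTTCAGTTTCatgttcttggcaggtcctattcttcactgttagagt
Irgm1 (chr11:48871421-48871520, minus strand): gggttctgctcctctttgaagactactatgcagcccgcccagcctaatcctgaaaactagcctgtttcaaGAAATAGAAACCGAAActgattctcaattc
In Tgtp1, Tgtp2, Igtp and Irgm2 a GAS match was followed by an ISRE match after 2 bases. Gm12250 had a GAS match between ISRE matches read from the opposite strand, and Irgm1 had 2 overlapping ISRE matches and no GAS match. The windows of Ifi47 and Gm5431 held neither motif, although both genes were called higher. Promoters of guanylate-binding protein genes, found for 5 of 11 genes, held the ISRE core in 5 of 6 cases and GAS in 2. Those of other IRG-family genes held the ISRE core in 1 of 3 cases and GAS in 0. Promoters of housekeeping GTPases held the ISRE core in 0 of 22 cases and GAS in 1. These are matches of letters and do not show binding.

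**Figure D4:**
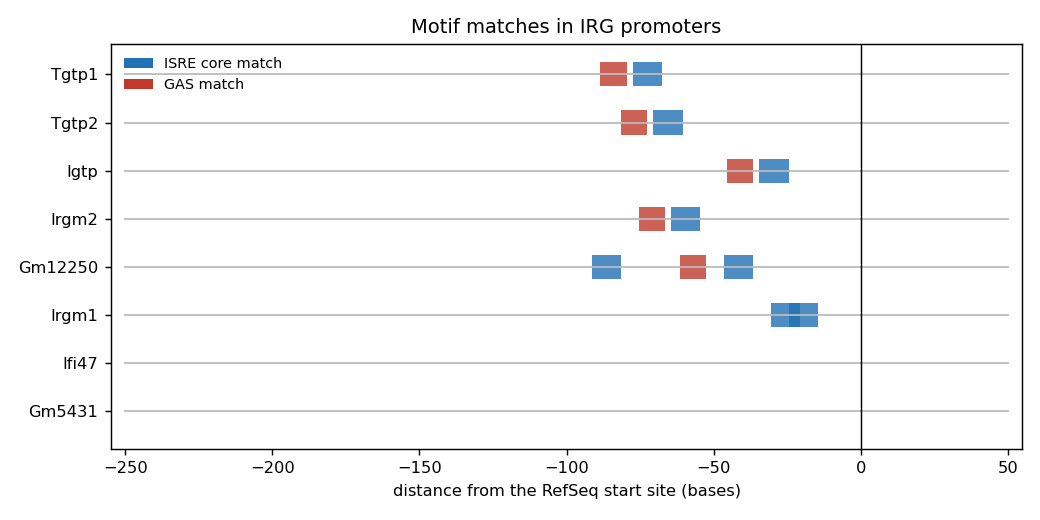
Positions of ISRE core (blue) and GAS (red) matches, in bases from the RefSeq start site, in the 300-base promoters of 8 IRG genes. In Tgtp1, Tgtp2, Igtp and Irgm2 the 2 motifs lie side by side, and Ifi47 and Gm5431 have no match.

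Other IRG-family genes moved in part with the members. Of 6 listed, 5 were tested and 4 were called higher, where 4.39% of all genes tested were. F830016B08Rik had 226, 242 and 245 counts against 8, 8 and 9 (log2FC = 4.68, FDR = 1.69e-07), and Iigp1c (listed earlier as Gm4951), a relative of Iigp1, had 991, 1020 and 1001 against 66, 54 and 104 (log2FC = 3.70, FDR = 2.57e-08). F830016B08Rik passed the low-count filter through its oe-AQP1 samples, so its call adds little. 9930111J21Rik2 had a log2FC of 1.71 and 9930111J21Rik1 of 1.37. Irgq, a divergent member of the wider family, had 536, 592 and 533 counts against 632, 503 and 536 (log2FC = -0.08, FDR = 0.538), and Irgc, a testis gene, had at most 3 counts in any sample.

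The guanylate-binding proteins are larger interferon-induced GTPases that act on the same vacuoles. Of 11 tested, 10 were called higher, where 4.39% of all genes tested were. The median log2FC of the 11 was 2.91. Gbp2 (log2FC = 3.89), Gbp11 (3.87, with 3 to 6 counts in oe-NC samples) and Gbp2b (3.80) had the highest log2FC. Gbp11 passed the low-count filter through its oe-AQP1 samples, so its call adds little. The lowest called were those of Gbp9 (2.15), Gbp7 (2.42) and Gbp4 (2.48), and Gbp8 had 0.84 (FDR = 0.00952) and missed the fold threshold. In contrast, the 20 housekeeping GTPases, such as Rac1 and Rab7, lay between -0.29 and 0.21 on the log2FC scale with a median of -0.08. By FDR alone 2 of them were higher and 5 lower, where 16.0% and 16.6% of all genes were.

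Upstream of the family, interferon genes were scarce. Of 20 listed, 12 were at 0 in all samples, Ifng (interferon gamma) among them, and 2 were tested. Ifnb1 (interferon beta) had 264, 288 and 277 counts in oe-AQP1 and 3, 6 and 5 in oe-NC (log2FC = 5.72, FDR = 2.60e-07). Ifna4 had 34, 23 and 23 counts against 0 in each oe-NC sample (FDR = 5.73e-06). Both were called higher, but both passed the low-count filter through their oe-AQP1 samples, so their calls add little. Both fell below a filter of 10 counts in every sample.

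Of 21 receptor and signalling genes, 8 were called higher, where 4.39% of all genes tested were. Among them were the transcriptional regulators Stat2 (log2FC = 1.97), Irf7 (1.97), Irf1 (1.43), Batf2 (2.19) and Nlrc5 (1.67), the last a regulator of MHC class I genes, and the feedback inhibitors Socs1 (1.75) and Usp18 (1.74). Stat2 CPM was 446.68, 455.63 and 440.11 in oe-AQP1 and 118.5, 112.66 and 112.4 in oe-NC. Irf9, a DNA-binding partner of STAT2, had a log2FC of 0.68 (FDR = 4.31e-07) and missed the fold threshold. By FDR alone 13 of the 21 were higher and 2 lower, where 16.0% and 16.6% of all genes were. The lower ones were the receptor chain Ifngr1 (log2FC = -0.21, FDR = 0.00561) and the kinase Jak1 (log2FC = -0.11, FDR = 0.0457), while the receptor chains Ifngr2 (0.37, FDR = 0.00125), Ifnar2 (0.27, FDR = 0.00134) and Ifnlr1 (0.38, FDR = 0.00714) were higher.

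The list of ATG8 conjugation and vacuole marking held conjugation genes, ATG8 proteins, ubiquitin adaptors and ligases, and other autophagy genes. Only some of these place IRG proteins on vacuoles or tag those vacuoles with ubiquitin. Of the 22 genes, 2 were called higher, where 4.39% of all genes tested were. These were the ubiquitin ligases Trim21 (log2FC = 2.27, FDR = 1.18e-09) and Rnf213 (log2FC = 1.74, FDR = 3.64e-10). The median over the 22 was 0.0117. By FDR alone 8 were higher and 5 lower, where 16.0% and 16.6% of all genes were.

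**Figure D5:**
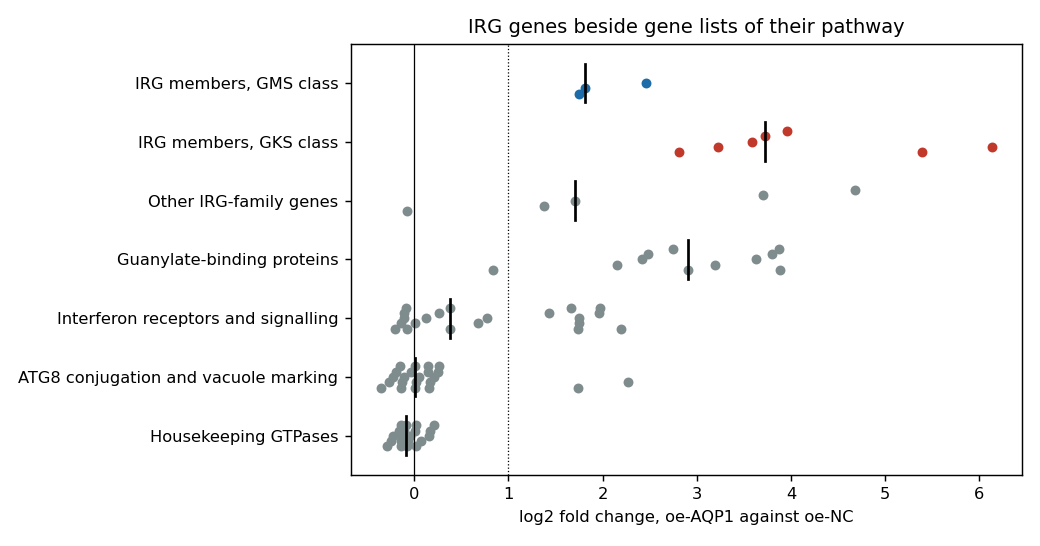
Log2 fold change (oe-AQP1 over oe-NC) for each tested gene of the IRG classes and of the pathway lists, with black bars at the medians and a dotted line at 1. Medians are 1.81 for GMS, 3.72 for GKS, 2.91 for guanylate-binding proteins and -0.08 for housekeeping GTPases. For the 4 GKS genes with at least 10 counts in every sample the median is 3.40.

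Genes near the IRG loci were read from the same fit, in which 4.39% of all genes tested were called higher. Within 200 kb of the first chromosome 11 cluster, 14 other genes were tested and 5 were called higher, of which Gm74350, Gm12185, Or2v1 and Gm74477 overlap a member's span and Psme2b (log2FC = 1.55) does not. Around the second cluster, 11 were tested and their highest log2FC at an FDR under 0.05 was 0.45, for Mrpl22. Around Iigp1, 3 of 8 were called higher, namely Gm4841 (log2FC = 5.02, FDR = 3.19e-05), BC023105 (4.31, FDR = 8.21e-07) and Gm5970 (3.23, FDR = 5.51e-04). How many reads these 3 values rest on is not given here. Whether neighbours are themselves IRG genes outside the fixed lists was not examined. The genes outside the family whose profile over the 6 samples lay nearest to the members' median, among 13528 with at least 1 CPM on average, were Phf11d (Euclidean distance 0.172 in log2 CPM), Gvin-ps7 (0.206), Zbp1 (0.211), Or2v1 (0.287) and A530040E14Rik (0.320). Their log2FC was 3.32 to 3.37, and its closeness to the members' median follows from how these genes were chosen. Members' own distances ran from 0.268 for Tgtp2 to 4.62 for the Gm12250 lncRNA model.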

How the data were processed

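Total RNA of 6 RENCA samples was sequenced as paired-end TruSeq libraries. The authors deposited expected counts per gene, not scaled between samples, with 2 columns of group means that were not used here. The submitters' processing notes name fastp, HISAT2 and featureCounts (Subread) without versions and the build GRCm38 (mm10), whereas the study's methods name GRCm39. Of 78298 gene identifiers, 78168 occur in GENCODE M39 (GRCm39), which supplied positions and exon lengths. Strand handling is not given in the sources used here.

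Expected counts were rounded, filtered with filterByExpr by group, scaled by TMM and compared with limma-voom (limma 3.58.1, edgeR 4.0.16, R 4.3.3), after the study's methods (FDR under 0.05, absolute log2FC above 1). The study also removed genes of the interferon and antiviral response from its results, to reduce what it calls transfection artifacts. This step was not applied here, since the IRG genes are of that kind. CPM includes the TMM factor. voom adds 0.5 counts, and log2 CPM for profiles and permutation tests used a prior count of 2. The code was tested on simulated data. Confidence intervals are at 95%, and the counting interval for Gm5431 covers counting error only. Depth was 18385714.02 to 21920898.67 counts, and replicates are described as biological. The study describes a stable line made by lentiviral transduction and does not state whether samples of a group came from separate transductions. The p-values therefore measure the spread between these samples and may not cover that between transductions. The fit was repeated with the quasi-likelihood test of edgeR, DESeq2 1.42.0, quality weights, 3 other scalings, 2 other filters, unrounded counts, a replicate block, other thresholds, summed gene models, canonical transcript lengths and leaving out each sample. Summing Gm12250 and the canonical length were chosen after seeing the data.

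The members and gene lists were chosen with earlier results of these data known. Genes named were all members, Aqp1, from each list the called genes with the 3 highest and 3 lowest log2FC and genes that define the list, and the 5 genes nearest to the members' median profile. Neighbouring genes, Socs1, Irf9, the receptor chains, Jak1, Gbp8 and the marker genes other than Csf1r were named after their values were seen. Sequences come from GENCODE transcripts and RefSeq promoters (GRCm38.p6), and coordinates are given on the build of each. A listed gene is not reported here by name.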

Additional observations from a re-analysis of the deposited data

How the results depend on the processing

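The log2FC of the IRG members kept its direction and its side of both thresholds in 173 of 173 values recomputed under 18 alternatives. With an absolute log2FC above 2 required, 8 of 10 were called, without Irgm1 and Irgm2. All 10 models were called with edgeR's quasi-likelihood test, with DESeq2 and in each fit without 1 sample, while genes called over the whole table numbered 765 to 891 without 1 sample. With at least 10 counts in every sample, 482 genes were called, the interferon ligand genes called fell from 2 to 0 because neither was kept, and the members' median log2FC was 2.82 because the 3 models with few oe-NC counts were not tested. Without a fold threshold 5050 genes passed. With the Gm12250 models summed the members' median was 3.23. With canonical transcript lengths the family's summed level was 297.765 TPM in oe-NC and 1915.98 TPM in oe-AQP1. The coding length from RefSeq proteins was not run.

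Deviations of same-numbered samples correlated at 0.00911, -0.0044 and -0.0677, so no variation shared by sample number was seen. With 3 samples per group this cannot show that samples were not handled in pairs. With the replicate number as a block, 786 genes and all 10 members were called, and the members' median was 3.40. Depth limits the values of Gm5431 and Gm12250, which rest on few oe-NC reads, and the division of reads between Tgtp1 and Tgtp2 or between the Gm12250 models cannot be recovered from the counts.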
